A study of Mus musculus with 3 samples.

Results

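The 9 genes described here, Ear1, Ear2, Chil3, Krt79, Plet1, Marco, Siglecf, Mrc1 and Htr2c, are used as markers of alveolar macrophages in mouse lung. They were taken by name from the tables of cells and of nuclei, which hold 21507 genes in common, and all 9 were present in both. The series compares dissociated single cells with isolated single nuclei as starting material for droplet RNA sequencing (10x Chromium) of the lung of wild type C57Bl/6J mice. The cell library (1 sample) came from fresh lung that was broken up by enzymes (collagenase, DNAse) and mechanically and cleaned on an Optiprep gradient. The nucleus libraries (2 samples, nuclei replicates 1 and 2) were made from lung of adult mice that had been snap frozen and lysed in a nucleus isolation buffer. The labels name no allele or treatment in any group. Fresh against frozen tissue and cells against nuclei cannot be told apart in this design. Nothing in the labels ties the libraries to animals, but the sex-linked genes given below were those of a female in nuclei replicate 1 and of a male in replicate 2, so these libraries came from different animals. The spread behind each p-value comes from these libraries, in which animal, sex and technique cannot be told apart. The fit left 1 residual degree of freedom, so that spread was estimated largely from all genes tested together, not from each gene alone.

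Alveolar macrophages live in the airspace, where they clear inhaled particles and spent surfactant. Their identity depends on GM-CSF from the epithelium, on autocrine TGF-beta and on the lipid-sensing nuclear receptor PPARG. Of the 9 genes, Ear1 and Ear2 encode small secreted ribonucleases of the eosinophil-associated family and Chil3 encodes a secreted chitinase-like protein (Ym1). Marco is a scavenger receptor for bacteria and particles, Siglecf a sialic acid-binding receptor, Mrc1 the mannose receptor (CD206) and Htr2c a serotonin receptor. Plet1 encodes a surface protein held by a lipid anchor, and Krt79 an intermediate filament keratin.

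Ear1 and Ear2 are near copies of each other, and this bears on every value given for them. Their coding sequences (GENCODE, GRCm38) were 95.7% identical over 465 bases, with 20 differences. The last 300 bases of the transcripts, from which a 3′ assay reads, were 98.7% identical, with 4 differences. Reads from the 2 genes may therefore have been exchanged or left uncounted, and Ear1 and Ear2 values are uncertain to that extent. The 60 coding bases in which they differ most (bases 96 to 155, counted from the start codon) are shown with the 5 differing positions in capitals.
Ear1: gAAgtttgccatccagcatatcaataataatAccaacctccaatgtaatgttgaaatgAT
Ear2: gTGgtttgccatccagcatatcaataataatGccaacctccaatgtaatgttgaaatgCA
Ear10, a further relative, was 95.1% identical to Ear1 and 97.0% to Ear2 over the coding sequence. It had 20 counts in alveolar macrophage cells (2.69 CPM, counts scaled to a total of 1000000) and 0 and 4 counts in the nuclei of replicates 1 and 2. Chil3 was 95.4% identical to its neighbour Chil4 over the coding sequence and 90.0% over the last 300 bases.

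The near identity of Ear1 and Ear2 continued into the promoters, where 294 of 297 aligned bases were the same. The 150 bases before the RefSeq start (GRCm38.p6) are shown for the pair, Ear1 at chr14:43819640-43819789 on the minus strand and Ear2 at chr14:44102504-44102653 on the plus strand.
Ear1: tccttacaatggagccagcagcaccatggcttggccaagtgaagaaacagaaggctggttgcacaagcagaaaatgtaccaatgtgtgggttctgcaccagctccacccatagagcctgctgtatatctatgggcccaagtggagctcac
Ear2: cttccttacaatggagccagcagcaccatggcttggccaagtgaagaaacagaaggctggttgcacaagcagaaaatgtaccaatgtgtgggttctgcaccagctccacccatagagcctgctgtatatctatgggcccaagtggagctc
Promoters of 300 bases, from 250 before to 50 after the start, were searched on both strands for motifs of factors that act in macrophages. GAGGAA, the core of the PU.1 site, was found for 3 of the 9 genes (Marco, Siglecf and Mrc1), against 28.3% of 27025 promoters. GAGGAAGT, a longer PU.1 site that contains the core, and the E-box CACGTG, bound by MITF and TFEC, were found for 0 of the 9, against 3.28% and 7.24% of promoters. The AP-1 site TGANTCA was found for Plet1 and Htr2c, against 7.93% of promoters. The promoter bases are shown for the 3 genes with the core, which is in capitals (TTCCTC on the other strand), Marco at chr1:120505025-120505174 (minus), Siglecf at chr7:43351191-43351340 (plus) and Mrc1 at chr2:14229264-14229413 (plus).
Marco: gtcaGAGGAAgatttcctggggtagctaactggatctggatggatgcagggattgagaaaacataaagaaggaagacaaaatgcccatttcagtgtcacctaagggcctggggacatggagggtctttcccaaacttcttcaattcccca
Siglecf: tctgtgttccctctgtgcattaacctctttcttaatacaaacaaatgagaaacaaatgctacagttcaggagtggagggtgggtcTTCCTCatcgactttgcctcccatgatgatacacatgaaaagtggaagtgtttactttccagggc
Mrc1: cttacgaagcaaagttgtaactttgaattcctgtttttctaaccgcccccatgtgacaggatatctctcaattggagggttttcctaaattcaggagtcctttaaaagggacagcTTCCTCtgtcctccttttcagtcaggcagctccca

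Cells and nuclei were clustered without these 9 genes, and clusters were called alveolar macrophage-like from 12 other markers, so that the levels of the 9 genes did not place the barcodes. The class held 2259 barcodes of the cell library (18.9%), 167 nuclei of replicate 1 (2.44%) and 462 nuclei of replicate 2 (4.77%). All 12 markers had counts there, and their summed level was 11880 CPM in cells and 19211 and 17858 CPM in nuclei, against 770 to 2921 CPM over whole libraries. Kcnip4 alone made up 4262, 14176 and 13485 CPM of these sums, and the other 11 markers summed to 7618 CPM in cells and to 5034 and 4373 CPM in nuclei. Classical monocytes, non-classical monocytes and neutrophils formed classes of 731, 397 and 165 cells and no class among nuclei. They are therefore absent from every ranking of nuclei. Single classes are ranked below only where a library held at least 50 barcodes of them. Among the smaller ones, the 25 plasma cell nuclei of replicate 2 had 1 count each of Ear1 and Siglecf, which is 23.4 CPM (exact 95% interval 0.592 to 130). Eosinophils also express Ear genes and Siglecf. The 7 eosinophil markers, 4 of them in the nucleus table, summed to 2.55 CPM in alveolar macrophage cells and to 0 and 0.737 CPM in nuclei, and 4 of the 7 were at 0 in the cells. Markers of club cells, the secretory cells of the airway, stood at 1455 CPM in alveolar macrophage cells and at 16674 and 14774 CPM in the nuclei. These values were close to those of the whole libraries, at 1536 CPM in cells and 16566 and 17649 CPM in nuclei. The libraries shared 21 to 24 barcode sequences pairwise, and none of them was an alveolar macrophage in both. The libraries held 27148272 to 35962788 counts, and the deposited barcodes stopped at 2499 genes in cells and replicate 1 and at 2999 in replicate 2. Alveolar macrophages within 100 genes of that limit made up 3.59%, 20.4% and 0.866% of the class in cells and nuclei replicates 1 and 2.

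**Figure D1:**
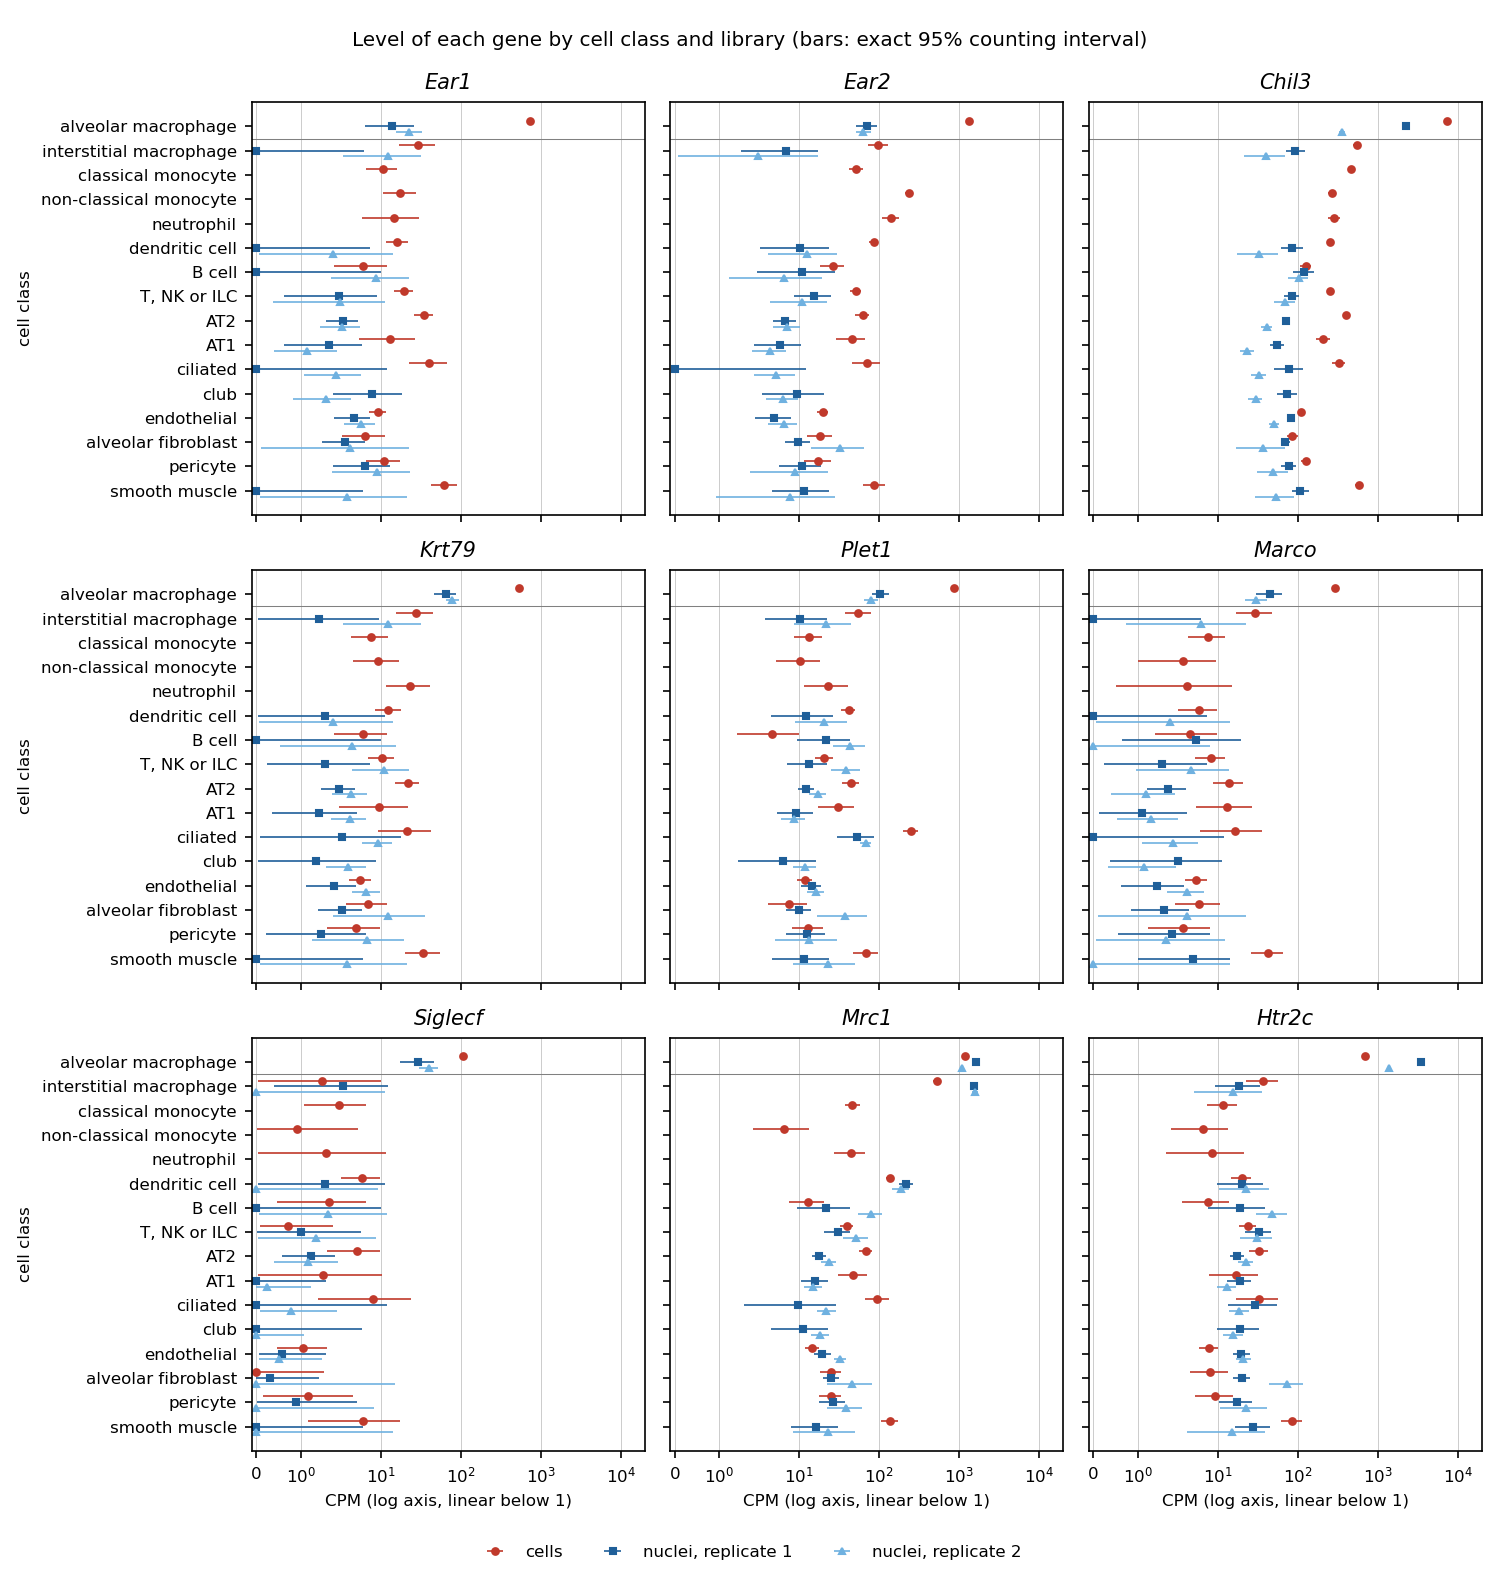
Level of each of the 9 genes in the cell classes named on the axis, in CPM on a log axis (linear below 1), for the cell library (circles) and nuclei replicates 1 (squares) and 2 (triangles), with exact 95% counting intervals. Alveolar macrophages, on the top line of each panel, had the highest level of the classes shown in every panel and library except Mrc1 in nuclei replicate 2, where interstitial macrophages were higher (1581 against 1067 CPM).

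The secreted ribonucleases were abundant in alveolar macrophage cells and low in the nuclei. Ear1 (chr14:43818765-43875517, minus strand) stood at 736 CPM in cells and at 13.9 and 22.8 CPM in the nuclei of replicates 1 and 2, where the values rest on 9 and 31 counts. Both nucleus libraries were far below the cells, and the log2 fold of cells over nuclei was 5.78 (SE 0.35, edgeR adjusted p = 3.85e-15). Ear2 (chr14:44102654-44103534, plus strand) stood at 1339 CPM in cells and at 69.5 and 63.3 CPM in nuclei. The fold of Ear2 was 4.86 on the log2 scale (SE 0.33, edgeR adjusted p = 3.58e-14) and its nucleus libraries were close together. In nuclei the counting intervals of Ear1 in alveolar macrophages (6.36 to 26.4 and 15.5 to 32.4 CPM) overlapped those of the next class, club nuclei in replicate 1 (2.56 to 18.4) and interstitial macrophage nuclei in replicate 2 (3.36 to 31.6). For Ear2 the interval in replicate 2 (50.7 to 78.2 CPM) also overlapped that of its next class, alveolar fibroblast nuclei (14.1 to 64.5, on 8 counts). Among cells no other class came near the alveolar macrophages. Ear1 reached at most 62.5 CPM, in smooth muscle cells. Ear2 reached 236 CPM in non-classical monocytes (exact 95% interval 208 to 267) and 138 CPM in neutrophils (107 to 176), above the 97.0 CPM of interstitial macrophages (72.7 to 127) and the 85.0 CPM of dendritic cells. Ear1 in the same non-classical monocytes was at 17.7 CPM, so the monocyte level was not shared by the pair.

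Chil3, the third secreted product (chr3:106147554-106167564, minus strand), stood at 7312 CPM in alveolar macrophage cells, 2241 CPM in nuclei replicate 1 and 357 CPM in nuclei replicate 2. Cells were above both, and the log2 fold was 2.98 (SE 0.48, edgeR adjusted p = 3.79e-06), but this call was lost with DESeq2 (fold 2.90, adjusted p = 0.286). Over the 9 tested alternatives the adjusted p of Chil3 ran from 2.83e-27 to 0.286. The nuclei differed from each other 6.70-fold, and without nuclei replicate 1 the log2 fold was 5.07. Classical monocytes, among the cells, had Chil3 at 458 CPM (428 to 488), and smooth muscle and interstitial macrophage cells had 580 CPM and 549 CPM, which is 6.26%, 7.94% and 7.51% of the alveolar macrophage level.

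Plet1 and Krt79 were both lower in nuclei. Plet1 (chr9:50494525-50505482, plus strand) stood at 862 CPM in alveolar macrophage cells and at 103 and 78.8 CPM in nuclei, with a log2 fold of 3.77 (SE 0.31, edgeR adjusted p = 3.40e-12). Krt79 (chr15:101929332-101940324, minus strand) stood at 538 CPM in cells and at 64.9 and 78.8 CPM in nuclei, with a log2 fold of 3.41 (SE 0.30, edgeR adjusted p = 1.31e-11). For both genes the nucleus libraries lay near each other and far from the cells. Plet1 had a second site of expression outside the macrophages. Ciliated cells of the airway held 246 CPM (198 to 302), which is 28.5% of the alveolar macrophage level. Ciliated nuclei held 52.2 and 67.6 CPM, 50.5% and 85.7% of the level in alveolar macrophage nuclei. Their counting intervals (29.9 to 84.8 and 57.8 to 78.5 CPM) overlapped those of alveolar macrophage nuclei (80.2 to 131 and 64.6 to 95.2 CPM). Mesothelial cells came next among cells, with 101 CPM of Plet1 (65.1 to 149), 11.7% of the alveolar macrophage level. Among nuclei B cells came next, with 21.6 and 43.5 CPM. Plet1 lies wholly within Plet1os, a gene on the opposite strand. The counting is not stated to use strand, so reads of the pair cannot be told apart here. Plet1os stood at 255 CPM in alveolar macrophage cells and at 144 and 94.3 CPM in nuclei, and at 51.3, 32.6 and 50.1 CPM in ciliated cells and nuclei. Krt79 had no such second class. Its next highest levels among cells were 34.3 CPM in smooth muscle and 27.5 CPM in interstitial macrophages.

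The 4 receptors were not alike. Marco (chr1:120474538-120505024, minus strand) stood at 289 CPM in alveolar macrophage cells and at 44.8 and 30.2 CPM in nuclei, with a log2 fold of 3.51 (SE 0.32, edgeR adjusted p = 3.11e-11). Siglecf (chr7:43351341-43359531, plus strand) stood at 105 CPM in cells and at 29.4 and 40.5 CPM in nuclei, with a log2 fold of 2.08 (SE 0.32, edgeR adjusted p = 1.36e-06). Both receptors were therefore higher in cells than in either nucleus library. In nuclei replicate 2 the counting interval of Marco (21.7 to 41.0 CPM) overlapped that of interstitial macrophages (0.746 to 22.3 CPM, on 2 counts). Outside alveolar macrophages Siglecf was low among cells. Its highest level in another class of at least 50 cells was 8.10 CPM, from 3 counts in ciliated cells, and over all non-myeloid classes it stood at 1.66 CPM in cells and at 0.671 and 0.731 CPM in nuclei.

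Mrc1 (chr2:14229392-14332057, plus strand) did not pass the test. It stood at 1178 CPM in alveolar macrophage cells, between the 1619 and 1067 CPM of the nuclei of replicates 1 and 2, with a log2 fold of 0.32 (SE 0.33, edgeR adjusted p = 0.444). It was also the gene of the 9 whose next class came closest to the alveolar macrophages in each library. Interstitial macrophages had 531 CPM of Mrc1 among cells (472 to 596), 45.1% of the alveolar macrophage level, and 1508 and 1581 CPM among nuclei, 93.1% and 148% of it. Dendritic cells followed with 136 CPM in cells and 218 and 185 CPM in nuclei. The gap between the macrophage classes was wider in cells than in nuclei, and this difference was not tested.

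Htr2c (chrX:146962513-147197277, plus strand) was the only one of the 9 that was lower in cells. It stood at 687 CPM in alveolar macrophage cells and at 3442 and 1379 CPM in nuclei, with a log2 fold of -1.31 (SE 0.40, edgeR adjusted p = 0.00824). The nuclei of both replicates were above the cells, but the call was lost with DESeq2 (adjusted p = 0.437) and when doublet calls were kept (edgeR adjusted p = 0.0815). Over the 9 tested alternatives the adjusted p of Htr2c ran from 0.000134 to 0.437, and without nuclei replicate 1 the log2 fold was -0.29. In each library the next class was far below. Smooth muscle cells had 84.6 CPM, T, NK or ILC nuclei of replicate 1 had 32.4 CPM, and alveolar fibroblast nuclei of replicate 2 had 73.7 CPM, which is 12.3%, 0.942% and 5.34% of the alveolar macrophage level.

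**Figure D2:**
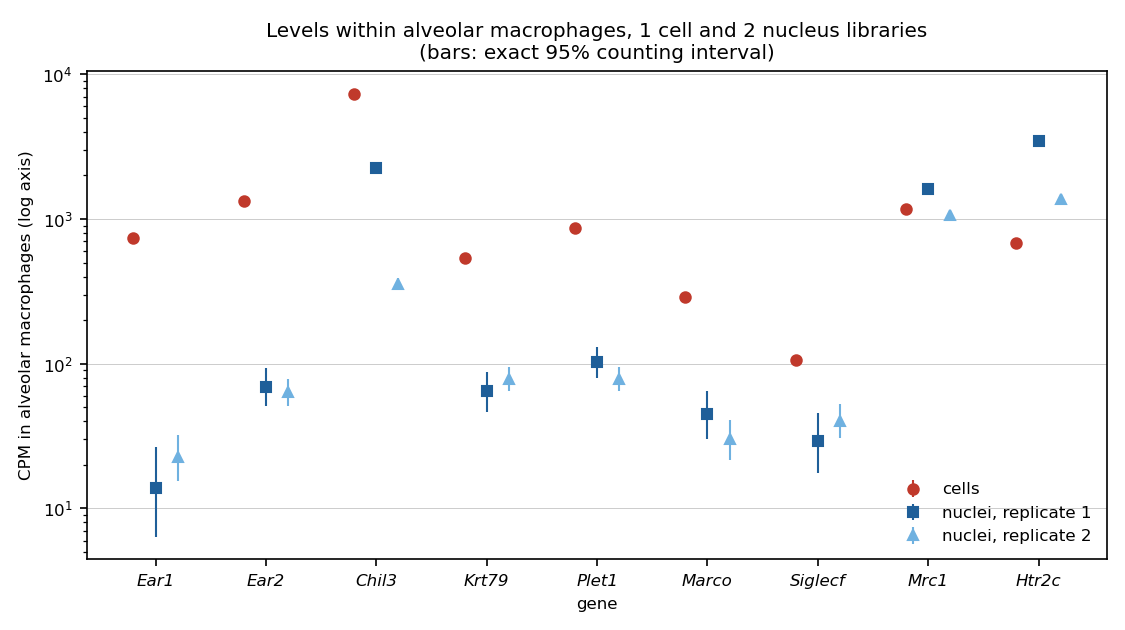
Level of the 9 genes within alveolar macrophages, in CPM on a log axis, for the cell library (circles) and nuclei replicates 1 (squares) and 2 (triangles), with exact 95% counting intervals. For 7 genes the cells lie above both nucleus libraries, Mrc1 lies between them and Htr2c lies below both, and Chil3 and Htr2c show the widest gaps between the nucleus replicates.

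In all, 7 of the 9 genes were higher in cells and 1 was lower, at an edgeR adjusted p under 0.05. Of all 12186 genes tested within alveolar macrophages, 26.7% were higher in cells and 16.5% lower. The median log2 fold of the 9 genes was 3.41 and that of all genes tested was 0.02. The folds carry TMM scaling, which multiplied CPM by 1.28 in cells and by 0.926 and 0.869 in nuclei. Scaled by library total alone, every log2 fold is 0.52 lower and the median of all genes is -0.50. On that scale Mrc1 stood at -0.20 and Htr2c at -1.83, and Siglecf, the lowest of the other 7 genes, at 1.57. The direction of Mrc1 therefore depends on the scaling. The fit compared 1 cell library with 2 nucleus libraries and assumed that the cell library varies like the nuclei, so the standard errors hold only as far as that assumption does.

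The difference between cells and nuclei went with the length of the gene across the whole transcriptome, and the 9 genes sat mostly above this trend. Genes with an annotated span (GENCODE, exons and introns) under 3 kb had a median log2 fold of 2.64, and those over 100 kb had -0.68. Ear2, with a span of 881 bases, lay at percentile 96.3 of the folds of 462 genes under 3 kb. Krt79, Plet1 and Chil3, of 10993, 10958 and 20011 bases, lay at percentiles 97.7, 98.5 and 96.3 of 3862 genes of 10 to 30 kb. Marco, of 30487 bases, lay at 98.8 among genes of 30 to 100 kb. Siglecf, of 8191 bases, lay at 64.9 in its class of 3 to 10 kb, whose median was 1.53. The long receptor genes Mrc1, of 102666 bases, and Htr2c, of 234765 bases, lay at 84.8 and 23.8 among genes over 100 kb. Introns made up 93.8% of the span of Mrc1 and 96.0% of that of Htr2c, against 18.4% for Ear2. The share was also high for genes that were higher in cells, at 93.7% for Marco, 91.8% for Chil3 and 82.2% for Plet1. For Ear1 it was 98.7% by GENCODE, and for Siglecf and Krt79 it was 65.9% and 56.8%. Whether intronic reads were counted is not given in the sources used here.

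The place of Ear1 in this order depends on the annotation. GENCODE gives it a span of 56753 bases through an isoform with a distant first exon, and RefSeq gives it 875 bases. Its fold lay at percentile 99.8 of the 30 to 100 kb class by the former and at 98.1 of the class under 3 kb by the latter. Length did not order the 9 genes fully. Marco was longer than Siglecf and had the larger fold, and Chil3 was longer than Siglecf with a fold that was larger as well.

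**Figure D3:**
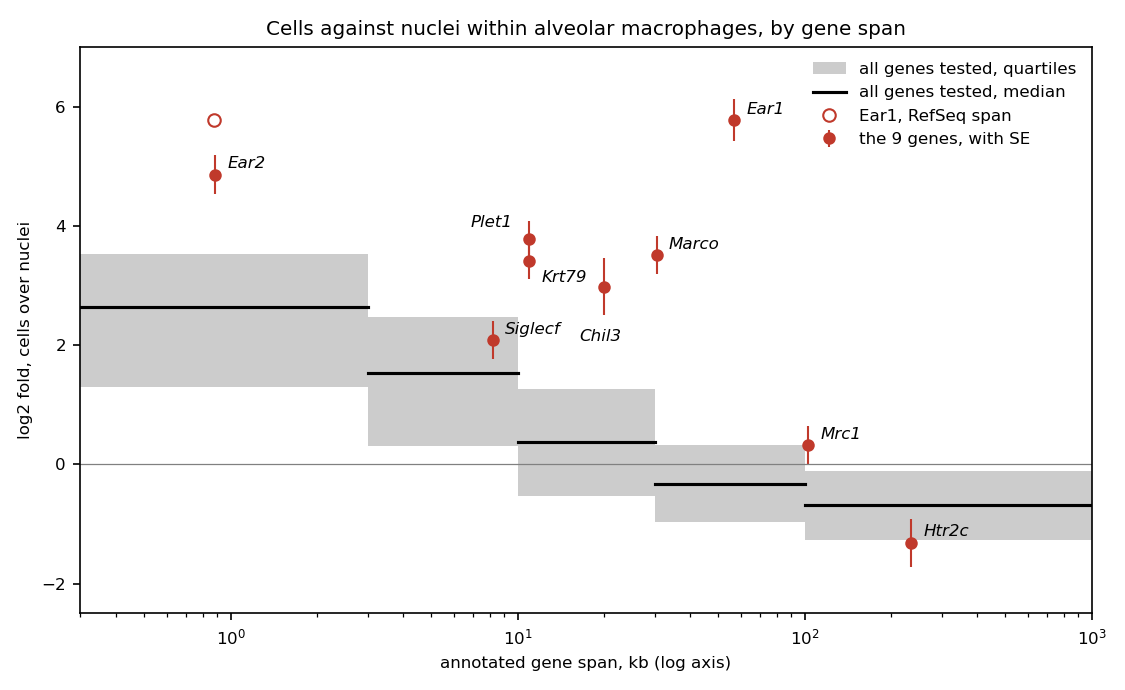
Log2 fold of cells over nuclei within alveolar macrophages against annotated gene span in kb (log axis), with standard errors for the 9 genes and, for all genes tested, the median (line) and quartiles (grey) of 5 span classes. Medians fall from 2.64 under 3 kb to -0.68 over 100 kb. Siglecf lies within the quartiles of its class, Htr2c just below them (-1.31 against -1.27) and the other 7 genes above them, and the open circle shows Ear1 at its RefSeq span.

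Detection in single barcodes broadly followed the levels, with Marco, given below, less in step. With each barcode thinned to 1000 counts, Ear1 was seen in 46.9% of alveolar macrophage cells (exact 95% interval 44.8 to 49.0%) and in 1.20% and 1.77% of nuclei. Ear2 was seen in 68.3% of cells and in 4.79% and 8.39% of nuclei. In B cells, which should lack the gene, Ear1 was seen in 1.23% of cells and in 0% and 0.707% of nuclei. The Ear1 interval in alveolar macrophage nuclei (0.145 to 4.26% and 0.765 to 3.45%) overlapped that in B cell nuclei (0 to 2.72% and 0.0857 to 2.53%), so a difference between them was not detectable at this depth. Median depth before thinning was 3264 counts in alveolar macrophage cells and 2550 in B cells, and 4093 against 2463 and 2850.5 against 1216.5 in the nuclei of replicates 1 and 2.

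Htr2c ran the other way, with 43.2% of cells (41.2 to 45.3%) against 84.4% (78.0 to 89.6%) and 57.6% (52.9 to 62.2%) of nuclei. Its share of B cells was 0.823%, and 1.49% and 5.30% of B cell nuclei. Mrc1 was seen in 63.7% of alveolar macrophage cells and in 69.5% and 58.3% of nuclei, and in interstitial macrophages in 35.1% of cells and in 62.9% and 55.6% of nuclei. Chil3 was seen in 98.1% of cells (97.4 to 98.6%), 79.6% of nuclei of replicate 1 and 28.7% of nuclei of replicate 2. The B cell share of Chil3, at 11.1%, 8.21% and 11.3%, was the highest of the 9 genes in each library. Krt79, Plet1, Marco and Siglecf were each seen in 9.61 to 56.7% of cells and in 2.87 to 7.06% of nuclei. The unthinned shares were higher by up to 32.0 points in cells and by up to 24.6 and 22.2 points in nuclei. Unthinned, Marco was seen in 31.3% of alveolar macrophage cells and Siglecf in 29.0%. Their levels there were further apart, at 289 CPM for Marco and 105 CPM for Siglecf.

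Counted per barcode, alveolar macrophage cells had a median of 4 of the 9 genes after thinning, against 3 and 2 in nuclei. At least 3 of the genes were seen in 91.6% of cells and in 60.5% and 24.5% of nuclei. AT2 cells, the surfactant-making pneumocytes that share the alveolus, reached 3 genes in 4.28% of cells, 0% of nuclei of replicate 1 and 0.0630% of nuclei of replicate 2. The count of 0 among 1350 nuclei allows a share of up to 0.222%, which covers counting error only.

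**Figure D4:**
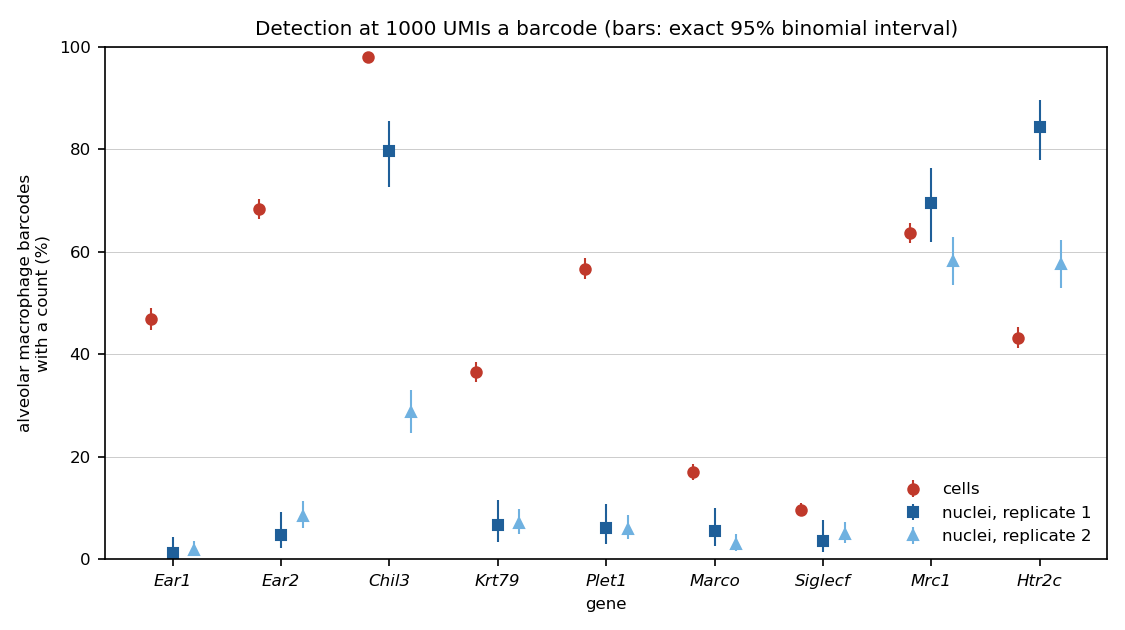
Share of alveolar macrophage barcodes with at least 1 count of each gene at 1000 counts a barcode, in percent, for the cell library (circles) and nuclei replicates 1 (squares) and 2 (triangles), with exact 95% binomial intervals. Ear1 is at 46.9% of cells against 1.20% and 1.77% of nuclei, while Htr2c is at 43.2% against 84.4% and 57.6%.

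The genes were also present at low level in the non-myeloid classes, and the pattern of this background differed between cells and nuclei. In the pooled non-myeloid classes of the cell library all 9 genes stood at nearly 1 fixed share of their alveolar macrophage level, from 1.58% for Siglecf to 2.67% for Marco, a range of 1.69-fold. Ear1 was at 15.5 CPM there (2.11%), Chil3 at 184 CPM (2.51%) and Htr2c at 16.8 CPM (2.44%). In nuclei the shares ran from 0.573% for Htr2c to 25.2% for Ear1 in replicate 1, a range of 44.1-fold. In replicate 2 they ran from 1.45% for Htr2c to 27.7% for Plet1. Ciliated nuclei, the second site of Plet1, gave 170 of the 478 pooled Plet1 counts there, and without ciliated barcodes, a choice made after seeing the data, Plet1 was at 20.2% and still the highest of the 9. The background of nuclei resembled the profile of whole alveolar macrophage cells more than that of the nuclei beside it. Across the 9 genes, on a log10 scale, Pearson's r of the nuclear background of replicate 1 was 0.905 with alveolar macrophage cells and 0.828 with the nuclei of its own library, and for replicate 2 it was 0.827 and 0.760. These are descriptions over 9 genes, which share libraries and depth, and the difference between the coefficients was not tested.

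**Figure D5:**
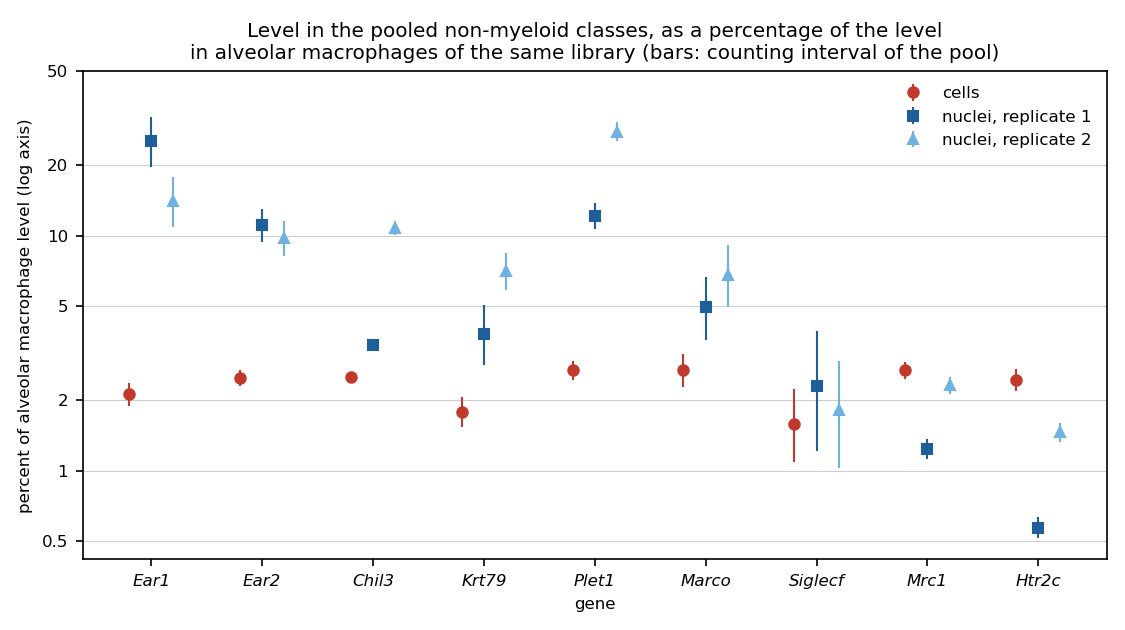
Level of each gene in the pooled non-myeloid classes as a percentage of its level in alveolar macrophages of the same library, on a log axis, with the exact 95% counting interval of the pool. The cell library (circles) stays between 1.58% and 2.67%, whereas nuclei replicates 1 (squares) and 2 (triangles) spread from 0.573% to 25.2% and from 1.45% to 27.7%.

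Between preparations, this non-myeloid background itself was higher in cells for Ear1 (15.9 against 3.62 and 3.03 scaled CPM, log2 fold 2.26, SE 0.40, edgeR adjusted p = 0.0354) and for Ear2 (34.2 against 7.94 and 5.84 scaled CPM, log2 fold 2.31, SE 0.35, edgeR adjusted p = 0.0286). The other 7 genes did not pass, with log2 folds from -0.19 for Htr2c to 1.90 for Marco. Of 19033 genes tested outside the myeloid classes, 9.74% were higher in cells and 3.78% lower, against 2 and 0 of the 9. The median log2 fold was 1.32 for the 9 genes and -0.03 for all. Chil3 missed the threshold with edgeR (fold 1.71, adjusted p = 0.0888) and passed it with DESeq2 (adjusted p = 0.0194), over a range of 0.0194 to 0.0996 in all alternatives. Alveolar macrophages held 20.7% of all counts in the cell library and 2.31% and 5.11% in the nucleus libraries, and the part of this difference in the background was not tested. The pools also differed in make-up. The cell library had no club class, against 139 and 999 club nuclei. It held 122 ciliated cells against 81 and 664 nuclei, and 642 alveolar fibroblast cells against 724 and 162 nuclei. The part of this make-up in the folds was not tested either.

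The background was not even over the classes. Smooth muscle, a class of 171 cells, held 5.73 to 14.7% of the alveolar macrophage level of every one of the 9 genes, and the highest non-myeloid level of 7 of them. These levels do not describe most cells of the class. The 21 counts of Marco lay in 2.34% of the cells, and Chil3 had a count in 30.4%, against 24.6% of endothelial and 31.6% of AT2 cells. AT2 cells held 34.4 CPM of Ear1 and 398 CPM of Chil3, against 9.33 CPM and 110 CPM in endothelial cells.

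The share of a gene's counts that lay in alveolar macrophages differed widely between the libraries. The class also made up unlike parts of all counts, 20.7% in cells and 2.31% and 5.11% in nuclei. The part of this in the shares was not tested. In the cell library alveolar macrophages held between 85.5% (Mrc1) and 93.2% (Krt79) of all counts of each gene, with a median of 90.3%. In nuclei replicate 1 the share ran from 9.38% for Ear1 (exact 95% interval 4.38 to 17.1%) to 80.8% for Htr2c (79.3 to 82.2%), with a median of 33.7%. In replicate 2 it ran from 16.8% for Plet1 (14.0 to 19.9%) to 78.8% for Htr2c (77.1 to 80.4%), with a median of 43.3%. Htr2c had the highest share of the 9 genes in both nucleus libraries. In replicate 1 the other 8 genes had more counts outside alveolar macrophages than in them, and in replicate 2 Ear1, Ear2, Chil3, Krt79, Plet1 and Marco did. Counts outside include barcodes left out of every class and, for Mrc1, interstitial macrophages (888 of 2641 counts in replicate 1). Siglecf came second in both nucleus libraries, with 47.5% and 75.3%, from 40 and 73 counts in all.

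The nucleus replicates were close for most of the 9 genes and far apart for Chil3 and Htr2c. Of 4214 genes with at least 50 scaled CPM in 1 of them, 4.75% differed 2-fold or more and 1.02% 4-fold or more between the alveolar macrophage nuclei of the replicates. Chil3 was 6.70-fold higher in replicate 1, at rank 3 among the genes higher there, and Htr2c was 2.66-fold higher, at rank 33. Mrc1 followed at 1.62-fold, and the other 6 genes differed by at most 1.58-fold, so that of the 6 genes with at least 50 scaled CPM 2 were 2-fold and 1 was 4-fold apart. With 1 library a side this has no replicate check. Htr2c is on the X chromosome, and Xist stood at 2027 and 5.12 scaled CPM in the alveolar macrophage nuclei of replicates 1 and 2 and at 376 in the cells. The Y-linked genes Uty and Ddx3y had 0 counts in replicate 1, which allows up to 4.63 CPM, and stood at 239 and 79.4 scaled CPM in replicate 2 and at 0.861 and 11.0 in the cells. The nucleus replicates thus differed in sex. Of 126 X-linked genes, 6.35% were 2-fold or more higher in replicate 1, against 1.90% of 4057 genes on chromosomes 1 to 19. Xist and Htr2c themselves are counted in the X-linked share. The median fold of replicate 1 over replicate 2 was 1.15 for the X-linked genes and 1.07 for those on chromosomes 1 to 19. The part of the sex difference in the Htr2c levels was not tested.

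Within the class, dividing barcodes formed clusters of their own, of 76 cells and of 11 and 42 nuclei. They were marked by Top2a, a DNA topoisomerase of dividing cells (577 CPM against 13.7 CPM in the main cluster of cells). No alveolar macrophage marker was among the leading genes of these clusters. Dividing cells had levels near those of the main cluster for Ear1 (723 against 737 CPM), Chil3 (7424 against 7308 CPM) and Htr2c (652 against 689 CPM). Marco was at 425 against 283 CPM and Mrc1 at 797 against 1193 CPM, and with 1 cell library neither difference was tested. The dividing cluster of nuclei had lower levels, and whether it also held nuclei of other lineages was not tested. In replicate 2 Htr2c was at 836 against 1449 CPM and Mrc1 at 353 against 1159 CPM. In replicate 1, on 11 nuclei, Htr2c was at 391 against 3634 CPM and Chil3 at 261 against 2366 CPM. Without the dividing clusters the same 7 and 1 of the 9 genes passed the test, and Ear1 had a log2 fold of 5.62.

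Several genes outside the 9 followed the same pattern over cell classes. Likeness was measured as Pearson's r of log2(CPM + 1) over 18 classes of cells and 15 classes of nuclei, averaged over both, and the classes share libraries and the background described above. Atp6v0d2 was one of the markers that named the class, so its high level there was fixed by the naming. Htr2c was most like Cpne5, which encodes a calcium-dependent membrane-binding protein (mean r 0.964), Atp6v0d2, a subunit of the proton pump of lysosomes (0.953), and Kcnn3, a potassium channel (0.935). Marco was most like Atp6v0d2 (0.946) and Klhdc4 (0.935), and Krt79 was most like the formyl peptide receptor Fpr1 (0.899). Chil3 was most like Marco (0.907) and Htr2c (0.902), and Ear1 was most like Marco (0.851), Krt79 (0.850) and Chil3 (0.849). Plet1 was most like Plet1os (0.927) and Siglecf was most like Chil3 (0.882). Mrc1 was most like Rnf180 (0.903), and none of its 3 nearest genes was among the 9, nor were 2 of the 3 of Ear2, Fpr2 (0.828) and Sh2d1b1 (0.822).

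Other genes of the alveolar macrophage programme, scavenger receptors and relatives of the 9 genes were followed in the same fit. Of 31 genes of the GM-CSF, TGF-beta and PPARG programme 19 were higher in cells and 5 lower, against 26.7% and 16.5% of all genes, with a median log2 fold of 1.14. Of the 31 genes 10 were also among the 12 markers that named the class (Abcg1, Atp6v0d2, Ccl6, Cidec, Fabp1, Il1rn, Kcnip4, Pparg, Slc39a2 and Trim29). The fatty acid-binding protein gene Fabp1 stood at 475 scaled CPM in cells against 15.7 and 7.68 in nuclei (log2 fold 5.48), Il1rn, the interleukin 1 receptor antagonist, had a fold of 5.00 and the zinc transporter gene Slc39a2 one of 4.43. The lower genes included Pparg itself, at 361 against 1256 and 940 scaled CPM (log2 fold -1.60, SE 0.34, edgeR adjusted p = 0.000245), Kcnip4 (-1.18) and the transcription factor gene Tfec (-1.09).

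Of 23 scavenger and lectin receptor genes tested, from a list of 27, 13 were higher in cells and 1, Scarb1, was lower (log2 fold -1.31). The shares over all genes were 26.7% and 16.5%, and the median log2 fold of the list was 1.34. Olr1 of this list was a naming marker too. The lipopolysaccharide co-receptor Cd14 stood at 115 scaled CPM in cells and at 2.86 and 2.56 in nuclei (log2 fold 5.42), Tlr2 had a fold of 4.65 and Cd68 one of 4.40. Of 17 relatives of the 9 genes tested, from a list of 37, 7 were higher and 5 lower, against the same 26.7% and 16.5%, with a median of -0.29. Siglece (3.50), the keratin gene Krt19 (2.97) and Rnase6 (2.90) were higher in cells, and the epithelial keratin genes Krt18 (-2.88) and Krt8 (6.37 against 32.9 and 39.0 scaled CPM) and the chitinase gene Chia1 (-2.17) were lower. Markers of AT2 cells also stood higher in alveolar macrophage nuclei (3500 and 4134 CPM) than in the cells (955 CPM). The part of such epithelial background in these folds was not tested. Krt19 had 544 scaled CPM in alveolar macrophage cells and 63.0 and 74.9 in nuclei, a pattern near that of Krt79.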

How the data were processed

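Counts per gene and barcode were deposited as 1 table of cells and 1 of nuclei, whose 2 libraries are told apart by column names, per the file headers. They were taken here as UMI counts. The submitters' processing notes name STAR 2.5.3a and mm10. For the counting program, the annotation, strand and intronic reads, the answer is not given in the sources used here. The table of cells was assigned to the cell sample from its name.

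Kept barcodes had 400 genes or more and a mitochondrial share below 20%, which left 11934 cells and 6841 and 9806 nuclei. Doublets were scored per library, and 126 nuclei of replicate 2 were removed, while in the other libraries the caller marked below 0.5% and nothing was removed. Each table was clustered with scanpy 1.11.5 (2000 variable genes without the 9 members, 30 components, 20 neighbours, Leiden resolution 1). Clusters were named from fixed markers, and those that met no naming rule (1747 and 898 nuclei and 213 cells) or that held markers of unrelated lineages were left out of every class. Counts were summed per library and class and tested with edgeR 4.0.16 (quasi-likelihood, TMM, filterByExpr), adjusted by Benjamini-Hochberg over all genes tested. The standard error (SE) of a fold was derived from this test. It is the absolute log2 fold divided by the square root of the quasi-likelihood F statistic. CPM are scaled to the counts of the class unless called scaled, which means after TMM. Detection was compared after thinning each barcode to 1000 counts, leaving out shallower ones (9 of 462 alveolar macrophage nuclei and 59 of 342 B cell nuclei of replicate 2). Intervals are exact 95% intervals (Poisson for levels, Clopper-Pearson for shares) and cover counting error only. Non-myeloid classes are 13 named classes without macrophages, monocytes, granulocytes and dendritic cells, and the cell library lacked the club class among them.

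Alternatives were DESeq2 1.42.0, RLE scaling, no low-count filter, other clusterings, barcodes under 2000 genes, no doublet removal, each nucleus library left out, and thinning to 500 counts or none. A fit without the dividing clusters and a non-myeloid pool without ciliated barcodes were added after seeing the data. Named genes beyond the 9 were the 3 largest folds in each direction per list and the 3 most alike genes per member. The members and lists were chosen with earlier results of these data known. The test was run on simulated counts with few genes changed and the same spread set for every gene and library. That run cannot speak to the scaling or to the assumed spread of the single cell library.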

Additional observations from a re-analysis of the deposited data

How the results depend on the processing

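Of the 9 folds within alveolar macrophages and the 9 outside the myeloid classes, all kept their direction under the alternatives listed above, though Mrc1 within alveolar macrophages turned to -0.20 when scaled by library total alone, and calls changed only for Chil3, Htr2c and Marco. Outside the myeloid classes Chil3 passed with DESeq2 (adjusted p = 0.0194, range over alternatives 0.0194 to 0.0996) and Marco passed without the filter on low counts (edgeR adjusted p = 0.0461, range 0.0461 to 0.123). With DESeq2 the genes called within alveolar macrophages fell from 3257 to 1453 higher and from 2011 to 701 lower in cells, the number of the 9 genes lower in cells was 0, and outside the myeloid classes 1824 genes in place of 720 were lower. With barcodes under 2000 genes only, 1331 and 1172 genes were lower in cells within and outside. With doublet calls kept, 0 of the 9 genes were lower in cells. The causes were not tested.

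The median share of the 9 genes' counts in alveolar macrophages was 91.1% in cells when the 9 genes could be among the variable genes. With barcodes under 2000 genes it was 91.3%, 22.9% and 34.8% in cells and nuclei replicates 1 and 2, against 90.3%, 33.7% and 43.3%. The median share of alveolar macrophage barcodes with a count was 46.9%, 5.99% and 7.06% at 1000 counts. It was 28.9% in cells and 3.46% in nuclei replicate 2 at 500 counts, and 78.5%, 23.4% and 18.4% without thinning. No paired analysis was possible because there is 1 cell library, with no replicate number in its label, against 2 nucleus libraries. Leaving out a nucleus library left no residual degrees of freedom, so these values carry no test. They moved the log2 fold of Ear1 within alveolar macrophages between 5.72 and 6.31, of Plet1 between 3.65 and 4.16 and of Mrc1 between 0.14 and 0.86. Ear1, Siglecf and Marco rest on 9 to 55 counts in the alveolar macrophages of a nucleus library, which limits their precision.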
